A study of Mus musculus with 3 samples.

Results

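The cells described here are T cells of mouse blood picked by 3 genes that mark innate-like T and NKT cells: Zbtb16, Xcl1 and Klrb1c. A cell was taken when it had at least 500 UMIs (counted RNA molecules), at least 200 genes and at most 10% mitochondrial UMIs, and when it met 6 conditions on its raw UMIs. S100a8 and S100a9 made up under 5% of its UMIs, Cd79a, Cd79b and Ms4a1 summed to under 3, Cd3d, Cd3e, Cd3g and Trac to at least 2, and Zbtb16, Xcl1 and Klrb1c to at least 2. Cd8a and Cd8b1 summed to under 2 and Foxp3 was at 0. The gate took 389 of 29754 cells (members in the plots): 40 of 6891 in the Sham library, 314 of 10840 in the CLP library and 35 of 12023 in the HDCA+CLP library. The 3 gate genes, the 4 CD3 genes and the excluded genes chose the cells, so their levels below are descriptions only. All cells came from the blood of C57BL/6J mice, and every library carries the label 12 h. The Sham group was labelled as sham for that time, the CLP group as CMC-treated with CLP, and the third group as HDCA-treated with CLP. The labels do not expand these letters. CLP is taken to mean puncture of the ligated caecum, surgery that causes abdominal sepsis. HDCA is taken to be the bile acid hyodeoxycholic acid, and CMC the vehicle carboxymethylcellulose. The Sham label names no CMC, so in CLP against Sham the surgery and the vehicle cannot be told apart. The labels call the cells peripheral blood mononuclear cells, taken after digestion of the blood with hyaluronidase and DNase I, and the sources used here do not give how many animals a library holds.

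Innate-like T cells leave the thymus already able to make cytokines and to kill, and they answer cytokines such as IL-12, IL-18 and interferons without first being primed by a peptide. Zbtb16 encodes PLZF, the transcription factor that sets up this state in NKT cells, in MAIT cells and in some gamma delta T cells. Klrb1c encodes NK1.1, a lectin-like receptor of NK cells and NKT cells in this strain, and Xcl1 encodes a chemokine that draws in cross-presenting dendritic cells and is made by NK cells and activated T cells. NK cells use the last 2 of these genes as well, and they carry RNA for some CD3 chains, so NK cell genes are given beside the main results.

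Each group is 1 library, so no difference below has a replicate check and no p-value is given. The ranges in brackets are 95% intervals, exact Poisson for levels, exact Clopper-Pearson for shares and exact binomial for log2 ratios, and they cover counting error only. The libraries held 42427093, 87031721 and 95178381 UMIs over 7159, 11387 and 12205 barcodes in Sham, CLP and HDCA+CLP. The median gated cell had 9402, 5505 and 5604 UMIs in the same order, against 6277, 4349 and 3774 in the conventional CD3+ cells, which are CD3+ cells with under 2 gate UMIs, under 2 CD8 UMIs and no Foxp3. The pooled gated cells gave 383158, 2169928 and 218762 UMIs in Sham, CLP and HDCA+CLP, so levels in Sham and HDCA+CLP are the less precise ones. Levels are CPM, the UMIs of a gene divided by all UMIs of the pooled cells and scaled to 1e+06. Sham and CLP shared 26 cell barcodes, Sham and HDCA+CLP 17, and CLP and HDCA+CLP 34, and no barcode was held by gated cells of more than 1 library.

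Gated cells were most frequent among the CD3+ cells of the CLP library. They made up 1.30% (0.929 to 1.76) of 3082 CD3+ cells in Sham, 9.92% (8.90 to 11.0) of 3166 in CLP and 2.51% (1.75 to 3.47) of 1394 in HDCA+CLP. The intervals did not overlap between CLP and either of the others, and Sham and HDCA+CLP overlapped by a narrow margin. The log2 ratio of these shares was 2.93 for CLP against Sham and -1.98 for HDCA+CLP against CLP. Over all cells the shares were 0.580% (0.415 to 0.790), 2.90% (2.59 to 3.23) and 0.291% (0.203 to 0.405). These denominators differ in makeup, because the neutrophil gate (S100a8 and S100a9 at 5% of UMIs or more) held 256, 5313 and 9386 cells. As a background, 2 gate UMIs or more were also counted in B cells, which should lack these genes. They were found in 0.608% of 2633 B cells in Sham, 1.79% of 280 in CLP and 0 of 275 in HDCA+CLP. The last of these allows a share of up to 1.09% (3 counts of the total). Median depths of those B cells were 4268, 3284 and 2706 UMIs. The CLP share stood above that level, whereas the Sham share was 1.30% against 0.608%.

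Depth and the NK cell genes did not change which library was highest. After each cell was thinned to 2000 UMIs, the shares of CD3+ cells were 0.306% (0.140 to 0.580, 9 of 2940), 3.79% (3.10 to 4.60, 100 of 2636) and 0.944% (0.472 to 1.68, 11 of 1165). Thinning left out 16, 72 and 47 shallower CD3+ cells. Without the gated cells that carried an NK panel (at least 2 UMIs summed over Ncr1, Klre1, Klra4, Klra8, Klra9 and Eomes), the shares were 0.681%, 6.85% and 1.15%, from 21, 217 and 16 cells. A simulated-doublet score marked 15 of the 40 gated cells in Sham, 35 of 314 in CLP and none of 35 in HDCA+CLP. Over all cells it marked 5.73%, 9.11% and 9.76%, percentages set in advance from the number of barcodes. The gated cells of Sham, the reference of CLP against Sham, were thus marked far more often than the cells of their library. Without the marked cells the shares of CD3+ cells were 0.829%, 9.15% and 2.62%.

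**Figure D1:**
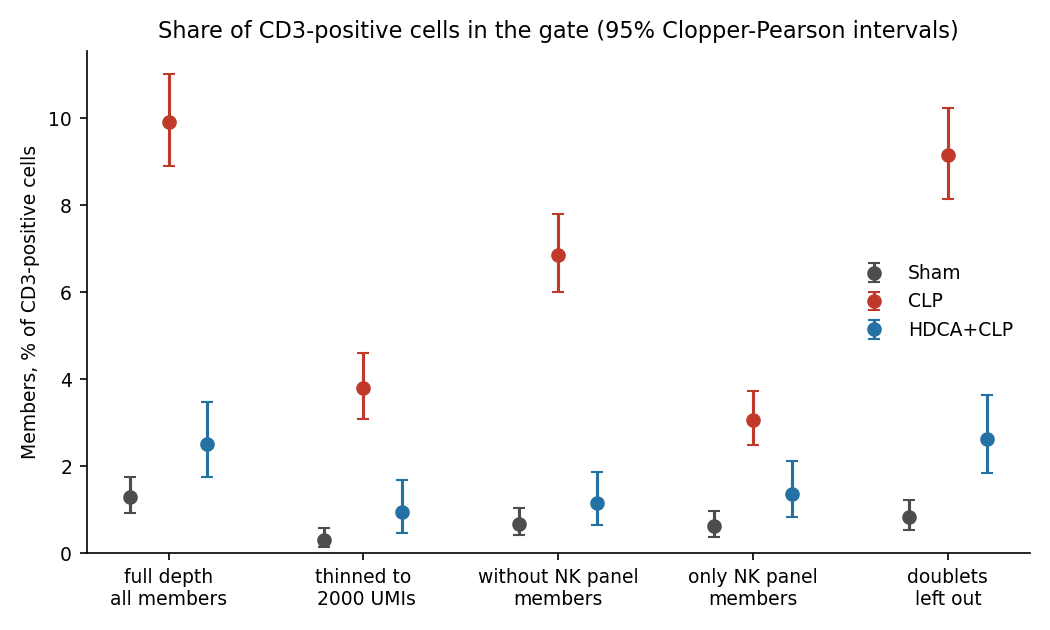
Gated cells as a percentage of CD3+ cells (y axis) in each library, at full depth, thinned to 2000 UMIs a cell, without or with only the NK panel cells, and without doublet-scored cells; bars on the points are 95% Clopper-Pearson intervals. CLP is highest in every version, at 9.92% at full depth and 3.79% after thinning.

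The 3 gate genes did not contribute evenly, and their mix differed between libraries. Klrb1c alone admitted 18 of 40 cells in Sham, 146 of 314 in CLP and 25 of 35 in HDCA+CLP. Zbtb16 alone admitted 10, 14 and 3 cells, and Xcl1 alone 3, 8 and 0. Pairs of Xcl1 with Klrb1c admitted 5, 76 and 7 cells, pairs of Zbtb16 with Klrb1c 3, 55 and 0, and all 3 genes together 1, 9 and 0. At least 1 Zbtb16 UMI was present in 35.0% (20.6 to 51.7) of the Sham gated cells, 26.8% (21.9 to 32.0) of those of CLP and 8.57% (1.80 to 23.1) of those of HDCA+CLP. Klrb1c was present in 67.5% (50.9 to 81.4), 91.1% (87.4 to 94.0) and 91.4% (76.9 to 98.2). Most gated cells of both CLP libraries were therefore admitted with Klrb1c. At full depth the Zbtb16 share was lowest in HDCA+CLP, and its interval overlapped those of both other libraries. A share of cells with a UMI depends on depth, and the Sham gated cells were the deepest. With the same cells thinned, Zbtb16 was present in 7.5% of Sham (3 of 40), 13.5% of CLP (42 of 311) and 8.57% of HDCA+CLP cells (3 of 35). The full-depth order of the Zbtb16 shares thus did not hold after thinning. As pooled levels, Zbtb16 was at 94.0, 60.4 and 32.0 CPM (36, 131 and 7 UMIs), Xcl1 at 62.6, 117 and 64.0 CPM, and Klrb1c at 321, 417 and 617 CPM.

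NK cell genes, gamma delta receptor genes and Cd4 split the gated cells further. The NK panel was carried by 47.5% (31.5 to 63.9) of gated cells in Sham, 30.9% (25.8 to 36.3) in CLP and 54.3% (36.6 to 71.2) in HDCA+CLP. In conventional CD3+ cells the same panel was met by 0.294%, 2.16% and 0.320%, and in the NK gate (under 2 CD3 UMIs, at least 2 of Klrb1c and Ncr1) by 100%, 95.7% and 93.2%. Gamma delta receptor RNA (Trdc with a Tcrg constant gene) was found in 5, 20 and 8 gated cells (12.5%, 6.37% and 22.9%) and Cd4 in 12, 25 and 1 (30%, 7.96% and 2.86%). None of the 3 was found in 10, 186 and 10 cells, which is 25%, 59.2% (53.6 to 64.7) and 28.6%. In conventional CD3+ cells gamma delta receptor RNA was found in 1.86%, 1.86% and 1.92%, Cd4 in 59.6%, 26.0% and 30.3%, and none of the 3 in 38.3%, 70.3% and 67.5%. The largest group in CLP thus fell in none of the 3 classes, as did most conventional CD3+ cells of that library. Falling outside a class does not mean that its RNA was absent: in CLP 61 gated cells had a Tcrg-C1 UMI and 33 a Trdc UMI, against 20 in the gamma delta class. Among NK panel cells, 8, 33 and 6 had under 5 CD3 UMIs, and the median CD3 count over all gated cells was 15.5, 9 and 9 UMIs, close to the 16, 8 and 7 of conventional CD3+ cells.

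**Figure D2:**
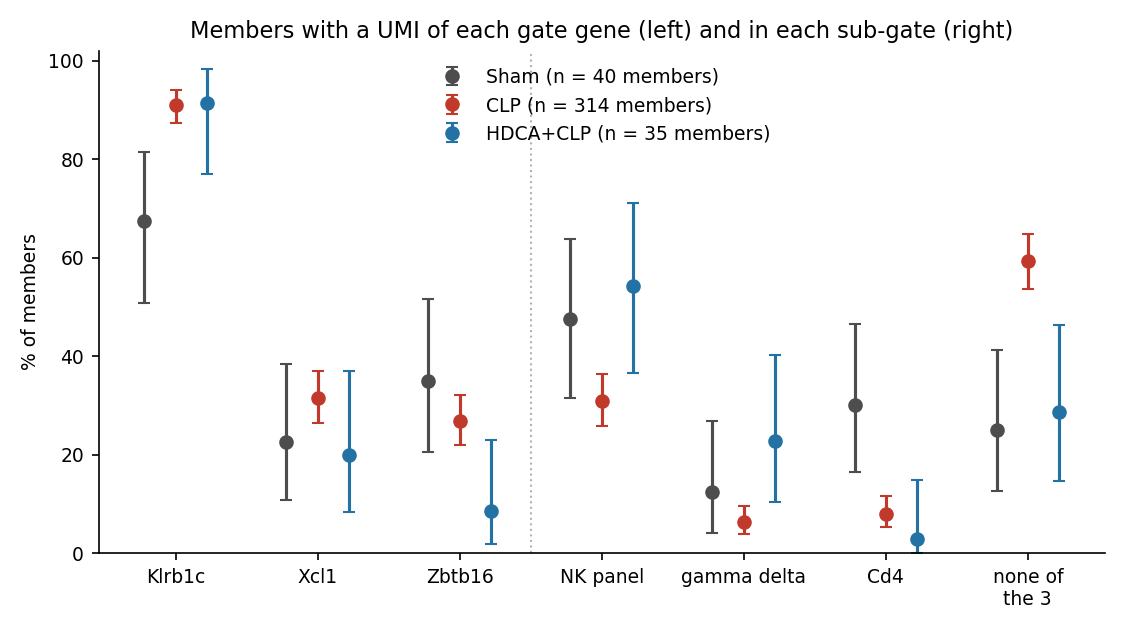
Percentage of the gated cells of each library (y axis) with at least 1 UMI of each gate gene, and in the NK panel, gamma delta, Cd4 and remaining classes (x axis), with 95% Clopper-Pearson intervals. Zbtb16 was present in 35.0% of Sham and 8.57% of HDCA+CLP gated cells at full depth. In the same cells thinned, these shares were 7.5% and 8.57% (not drawn). In CLP 59.2% of gated cells fell in none of the 3 classes, against 70.3% of conventional CD3+ cells (not drawn).

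In Nkg7 and the NK panel, the threshold of 2 gate UMIs divided a gradient. CD3+ cells with exactly 1 gate UMI numbered 22, 163 and 19, and those with exactly 2 numbered 12, 95 and 9. Nkg7, a cytotoxic granule gene, was at 447 CPM just outside and 753 CPM just inside the gate in Sham, at 747 and 1007 in CLP, and at 832 and 1402 in HDCA+CLP. Cells with no gate UMI had 29.6, 198 and 173 CPM. Cells with 1 gate UMI therefore lay nearer in Nkg7 to the cells with exactly 2 than to the cells with none. The NK panel was met by 13.6%, 14.1% and 5.26% of the cells with 1 gate UMI and by 25%, 16.8% and 33.3% of those with 2. Not every gene was graded: in Sham cells with 0, 1 and 2 gate UMIs Cxcr6 was at 5.46, 199 and 16.0 CPM. Ccr7 was at 412, 86.2 and 192 CPM in the same cells.

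Against conventional CD3+ cells of the same library, the gated cells had high cytotoxic and NK receptor RNA and low naive T cell RNA in all 3 libraries. Because the conventional cells were defined by having under 2 gate UMIs, these differences describe the gate and are not tests. Of the genes measured (at least 20 UMIs over both populations), 19%, 7.25% and 12% were higher in gated cells by a log2 ratio of at least 1 in Sham, CLP and HDCA+CLP, and 5.41%, 5.76% and 10.5% were lower by as much. The NK identity list had 17 of 17, 17 of 17 and 14 of 14 measured genes higher, with medians of 6.44, 3.37 and 5.98. All measured cytotoxic effectors were higher as well (11, 14 and 12 genes). In the naive list 14 of 14, 14 of 14 and 13 of 14 genes were lower, with medians of -0.79, -1.90 and -1.49.

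Single genes showed the size of this contrast. Gzma, a granzyme that enters target cells, was at 2793, 4635 and 8489 CPM in Sham, CLP and HDCA+CLP gated cells, against 11.7, 267 and 128 in conventional CD3+ cells. Prf1, the pore protein perforin, was at 217, 329 and 603 CPM against 10.5, 28.1 and 22.3. Il2rb, the receptor chain for IL-2 and IL-15 on which NKT and NK cells depend, was at 480, 749 and 882 CPM against 27.2, 177 and 101. Ncr1, the NK receptor NKp46, was at 167, 79.3 and 110 CPM in gated cells and at 0.846, 3.84 and 0.256 in conventional ones. These genes stood above the conventional level in each library, and the ratio was smallest in CLP, where the conventional cells themselves carried more Gzma, Prf1 and Il2rb than in Sham. On the low side, Ccr7, the lymph node homing receptor, was at 141, 22.1 and 36.6 CPM against 407, 216 and 283. Lef1, a factor of naive T cells, was at 295, 111 and 133 CPM against 596, 410 and 527.

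The gated cells were set beside the NK gate as well. Since the gates differ in CD3 UMIs by definition, the contrast in T cell receptor genes is a description. Trbc2, a constant segment of the T cell receptor beta chain, was at 1595, 867 and 873 CPM in gated cells, 1890, 1231 and 1324 in conventional CD3+ cells, and 187, 299 and 214 in the NK gate. Over the list of receptor complex and adaptor genes the median was -0.45, -0.37 and -0.61 against conventional cells and 1.28, 1.32 and 0.81 against NK cells. NK identity genes were lower than in the NK gate for 17 of 17, 17 of 17 and 16 of 17 genes, with medians of -2.26, -1.91 and -1.43. In the NKT list 11 of 13, 13 of 15 and 10 of 13 measured genes were above conventional cells (medians 2.29, 1.12 and 1.22). Against the NK gate 3 of 12, 7 of 14 and 5 of 11 measured genes were higher (medians -0.58, 0.07 and -0.09). Cxcr6, a homing receptor of NKT cells and tissue T cells, was at 104, 104 and 18.3 CPM, against 8.23, 35.8 and 21.0 in conventional cells and 0.806, 2.19 and 1.24 in NK cells. The HDCA+CLP value rests on 4 UMIs.

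**Figure D3:**
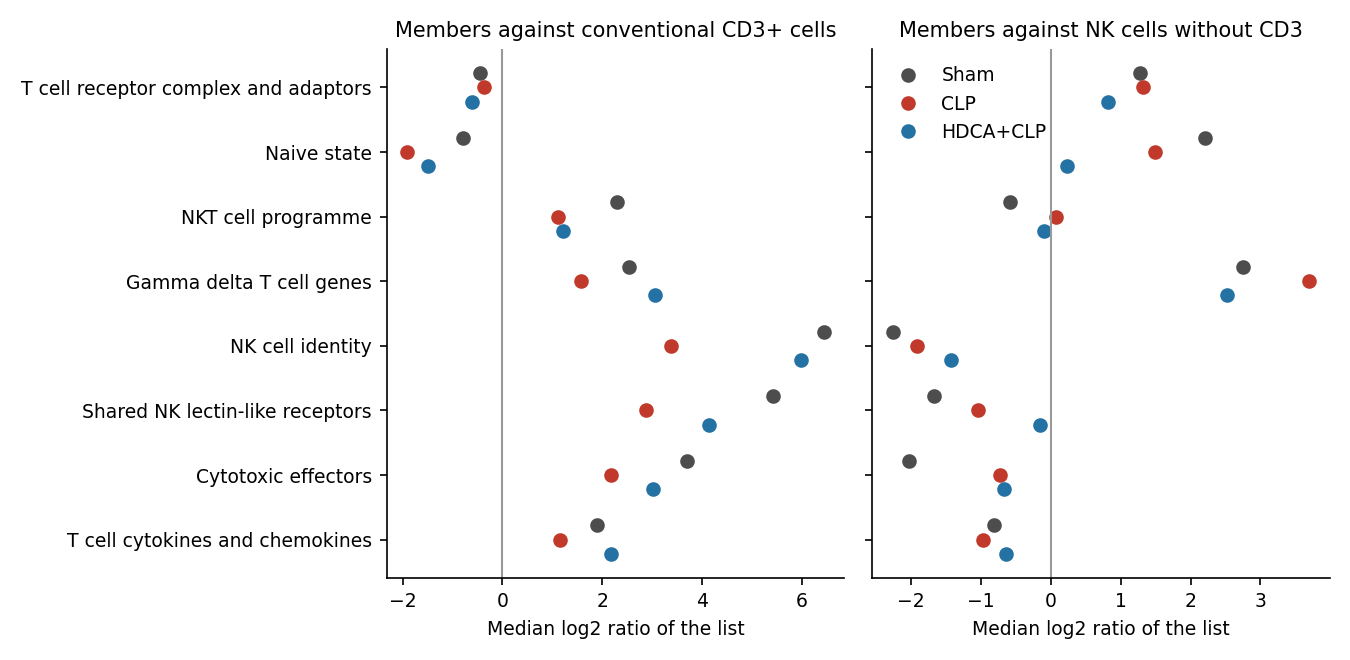
Median log2 ratio (x axis) of each gene list (y axis) for gated cells against conventional CD3+ cells (left) and against the NK gate (right); each point is 1 library, with no error shown. NK identity lies above conventional cells (6.44, 3.37 and 5.98) and below NK cells (-2.26, -1.91 and -1.43) in all 3 libraries.

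The label of innate-like T cells was met only in part. Trav11, which encodes the invariant alpha chain segment of NKT cells, was detected in 2 of 40, 16 of 314 (5.10%) and 0 of 35 gated cells. It was in 2 of 2039, 13 of 1987 and 0 of 938 conventional cells and in no B cell of any library (2633, 280 and 275 cells). The libraries read the 3′ end of transcripts, away from this segment, so the low counts do not give the number of NKT cells. Il17a, the cytokine of type 17 innate-like cells, had a UMI in 0, 1 and 0 gated cells. Il4, an early NKT cytokine, was in 6 of 40, 18 of 314 and 0 of 35 cells, the last of which allows a share of up to 8.57% (3 counts of the total), and in no B cell. The NK panel cells and the rest differed in which gate gene they carried. Zbtb16 was at 146, 89.7 and 89.0 CPM in gated cells without the NK panel and at 13.3, 15.2 and 0 CPM in those with it, and Cxcr6 at 163, 154 and 25.4 CPM against 13.3, 25.8 and 14.3. Gzma was at 12.9, 271 and 3471 CPM without the panel and at 7082, 11358 and 11305 CPM with it. Zbtb16 is a gate gene, so its contrast between these classes is in part fixed by the rule. In HDCA+CLP Cxcr6 was found in 3 of 35 gated cells, too few to compare the classes. The rule thus pooled cells with and without NK receptor RNA that differed in Gzma in each library and in Cxcr6 in Sham and CLP. The cells are therefore called gated cells here rather than by a cell type name.

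Of the 21 gene lists, which leave out the markers of other blood cells, the 2 of interferon-stimulated genes had the highest medians for CLP against Sham in the gated cells, and granzyme B RNA was higher as well. Of the 35 genes listed for the type I interferon response 31 were measured, all 31 were higher in CLP and 28 were higher by a log2 ratio of at least 1, where 10.1% of the 7726 measured genes were that much higher and 11% that much lower. The median of the list was 1.84, against -0.10 over all measured genes. For the interferon-gamma list 22 of 24 genes were measured, 21 were higher and 20 by at least 1, with a median of 2.25, or 1.91 without the genes at 0 in Sham. A gene was measured when both libraries together gave 20 UMIs, which a gene could reach through CLP alone. In conventional CD3+ cells the medians were 1.99 and 1.72, so both lists were also high outside the gate, and no difference between the populations was tested.

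Most of the 10 genes furthest above Sham are known targets of interferons. Ifit3, which binds foreign RNA as part of the antiviral response, was at 5.22 CPM in Sham (2 UMIs), 239 in CLP and 77.7 in HDCA+CLP gated cells, a log2 ratio of CLP to Sham of 5.52 (3.66 to 8.57). Isg15, a ubiquitin-like protein attached to other proteins under interferon, was at 33.9, 389 and 155 CPM, a log2 ratio of 3.52 (2.74 to 4.44). Cxcl10, the chemokine that attracts CXCR3-bearing T and NK cells, had 0, 357 (165 CPM) and 5 UMIs in the same order, and was at least 21.0-fold higher in CLP than the floor of 3 UMIs in the Sham library. All 3 genes were low in Sham, highest in CLP and intermediate in HDCA+CLP. Cxcl10 was found in 76 of the CLP cells. Serpina3f, a serine protease inhibitor, went from 0 UMIs to 397 (183 CPM) and was at least 23.4-fold higher, and Iigp1, a GTPase that attacks pathogen vacuoles, from 0 to 230 UMIs and at least 13.5-fold. Isg20, an antiviral exonuclease, was at 2.61, 159 and 22.9 CPM, and Ly6a, the surface antigen Sca-1, at 104, 1182 and 535 CPM (log2 ratio of CLP to Sham 3.50, 3.05 to 3.99). Reads of Ifit3, Serpina3f and Ly6a could be shared with near-identical neighbours (Ifit3b, Serpina3g and other Ly6 genes), so their single-gene values are uncertain.

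In 3 of these genes, Cxcl10, Ifit3 and Isg15, the RefSeq promoter holds the letters GAAA, then any 2 bases, then GAAA, the core of the interferon-stimulated response element, in the 250 bases upstream of the start. Both strands were searched and overlapping matches were counted. The stretches below are from RefSeq promoters of build GRCm38.p6, written on the strand of the gene, and the capitals mark the matches. They are shown because they are the regulatory letters of 3 of the genes that differ most between CLP and Sham.
Cxcl10: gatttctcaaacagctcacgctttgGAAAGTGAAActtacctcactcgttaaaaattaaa
Ifit3: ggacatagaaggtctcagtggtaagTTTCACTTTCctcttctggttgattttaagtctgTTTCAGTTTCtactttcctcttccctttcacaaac
Isg15: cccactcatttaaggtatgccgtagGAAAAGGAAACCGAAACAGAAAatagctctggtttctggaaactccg

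The Cxcl10 stretch lies at chr5:92349068-92349127 on the minus strand, and its match ends 203 bases before the start of the gene. The Ifit3 stretch lies at chr19:34583348-34583441 on the plus strand and holds 2 matches, the nearer ending 112 bases before the start. The Isg15 stretch lies at chr4:156200850-156200921 on the minus strand and holds 3 overlapping matches, the nearest ending 56 bases before the start. Of the 10 genes highest in CLP, 8 had an entry in the promoter table and 3 (37.5%) held the motif, against none of the 8 with an entry among the 10 lowest. The motif was in 14 of 25 promoters (56%) of the type I interferon list, in 11 of 18 (61.1%) of the interferon-gamma list, in 0 of 10 of the naive list and in 936 of 27025 (3.46%) of all genes in the table. These matches are a description of letters and do not show that a factor bound there. Serpina3f, Isg20, Cd38, Gzmb and Cysltr2 had no match in this window.

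Antigen presentation genes and, at full depth, the killing genes were also higher in CLP. All 13 genes of the MHC class I list were higher, 5 of them by at least 1, with a median of 0.77 (0.48 in conventional cells). Tapbp, which loads peptides onto class I molecules, was at 96.6, 299 and 261 CPM in Sham, CLP and HDCA+CLP. Gzmb, the granzyme that activates caspases in target cells, was at 196, 1972 and 2848 CPM in Sham, CLP and HDCA+CLP, and the CLP to Sham log2 ratio was 3.33 (3.00 to 3.68). It was at 0.692 and 314 CPM in the conventional cells of Sham and CLP. In the gated cells without the NK panel Gzmb went from 0 UMIs in Sham to 1406 CPM in CLP, and in those with it from 498 to 2845 CPM. Serpinb9, which protects killer cells from granzyme B, was at 78.3, 365 and 421 CPM, a CLP to Sham log2 ratio of 2.22 (1.70 to 2.80). Over the cytotoxic list 10 of 12 measured genes were higher and 5 by at least 1, with a median of 0.83 against 2.79 in conventional cells. After thinning to 2000 UMIs a cell the cytotoxic median was -0.25. The gate was re-applied to the thinned cells and left 9 in Sham and 100 in CLP. This value thus covers a smaller set of cells and is not a depth correction of the 0.83.

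Some receptors and survival genes were higher in CLP, from lists that were mixed as a whole. Of the BCL2 family list 8 measured genes were higher and 6 lower (median 0.15), of the inhibitory receptors 7 and 4 (median 0.31, or 0.06 without the genes at 0), and of the cytokine receptors 11 and 8. Il2ra, the high-affinity IL-2 receptor chain, had 1 UMI in Sham and 162 in CLP, a log2 ratio of 4.84 (2.34 to 10.15), and Ctla4, an inhibitory receptor, had 1 and 168 UMIs, a log2 ratio of 4.89 (2.39 to 10.20). Cd274, the ligand PD-L1, had 0 and 113 UMIs and was at least 6.65-fold higher. Cd38, an ectoenzyme, had 0 and 209 UMIs and was at least 12.3-fold higher, and Cysltr2, a leukotriene receptor, was at 5.22 and 123 CPM. These 5 genes were at or near 0 in the Sham cells. Bcl2a1b, an anti-apoptotic BCL2 relative, was at 67.9, 404 and 64.0 CPM and the pro-apoptotic Bcl2l11 at 57.4, 199 and 270 CPM, so genes of both actions were higher in CLP. Over the activation list 8 of 12 measured genes were higher, with a median of 0.48, where 3463 of all 7726 measured genes were higher. That median was -0.19 after thinning, -0.067 with no minimum and -0.19 in the NK panel cells alone. The thinned log2 ratio was -0.54 for Il2ra, -0.10 for Cysltr2 and -0.67 for Ifng. After thinning the Sham gated cells held 18000 UMIs, and a gene at 0 there was set to 3 UMIs. A negative thinned ratio of a gene near 0 in Sham, such as Il2ra or Cysltr2, therefore does not show a lower level in CLP. Ifng, the signature cytokine of type 1 innate-like cells, was at 65.3, 99.1 and 96.0 CPM, with a CLP to Sham log2 ratio of 0.60 (0.00 to 1.26). In conventional cells the log2 ratio of Ifng was 4.80.

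Homing and naive-state genes were lower in CLP. In the naive list 13 of 14 genes were lower, 9 by at least 1, with a median of -1.52 (-0.54 in conventional cells). In the trafficking list 18 of 19 measured genes were lower, 8 by at least 1, with a median of -0.92 (-0.23 in conventional cells). The NK gate had medians of -0.76 for the naive list (7 of 10 measured genes lower) and -1.33 for the trafficking list (12 of 16). S1pr1, the receptor that lets lymphocytes leave lymphoid organs, was at 240, 39.2 and 96.0 CPM in Sham, CLP and HDCA+CLP, a CLP to Sham log2 ratio of -2.62 (-3.06 to -2.17). Ccr7 was at 141, 22.1 and 36.6 CPM, a log2 ratio of -2.67 (-3.26 to -2.08). The integrin subunits Itga4 and Itgb7, which pair for homing to gut, were at 483, 106 and 261 CPM and at 232, 52.5 and 36.6 CPM. Tcf7, the factor TCF-1 of naive and memory T cells, was at 365, 84.8 and 174 CPM, a log2 ratio of -2.11 (-2.43 to -1.78). For S1pr1, Itga4 and Tcf7 the HDCA+CLP value lay between the others. Actn1 was at 104, 11.5 and 13.7 CPM, Igfbp4 at 131, 22.1 and 27.4, Rasgrp2 at 211, 45.2 and 64.0, Cd9 at 193, 42.9 and 64.0, and Tagap at 83.5, 14.7 and 22.9. Among the transcription factors Id3, which restrains effector differentiation, had 20 and 4 UMIs in Sham and CLP (log2 ratio -4.82, -6.83 to -3.25), whereas Bhlhe40 was at 49.6 and 149 CPM.

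Lists of the innate-like and NK programmes had medians nearer 0 in CLP against Sham. Of the NK identity list 11 of 17 measured genes were lower (median -0.58), of the gamma delta list 6 of 7 (median -0.56), and of the NKT list 9 of 14 were higher (median 0.23), where 4263 of all 7726 measured genes were lower. The NK identity median was 0.61 without NK panel cells, and the gamma delta median was 0.75 with only those cells and 0.0014 at a 5% mitochondrial limit. Cxcr6 was at 104 CPM in both Sham and CLP, with a log2 ratio of -0.01. Tbx21, the factor T-bet, was at 31.3, 39.6 and 54.9 CPM, a CLP to Sham log2 ratio of 0.34 (-0.54 to 1.35). Il18r1, a receptor for IL-18, was at 138, 77.0 and 119 CPM, and Gata3, a factor of IL-4 producing cells, at 99.2, 47.0 and 45.7 CPM. Among genes that glucocorticoids are known to raise, 11 of 16 measured were higher in CLP (median 0.52, or 0.25 without the genes at 0). Fkbp5 was at 44.4, 111 and 96.0 CPM and Tsc22d3 at 261, 185 and 270 CPM. The textbook targets of this hormone therefore stood on both sides of Sham.

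Interferon genes of CLP were above Sham both with and without NK genes in the cell, at different levels. The summed level of 34 type I interferon genes was 1862, 6644 and 3064 CPM in Sham, CLP and HDCA+CLP in gated cells without the NK panel, and 823, 2257 and 2805 CPM in those with it. Medians over single cells were 1641, 6085 and 2931 without the panel and 632, 1780 and 2580 with it. Gated cells with any Zbtb16 were at 1958, 6546 and 2945 CPM. In CLP the panel-free cells were thus the higher class, and in HDCA+CLP the classes were close. Ifit3 was at 4.30, 355 and 102 CPM without the panel and at 6.64, 60.9 and 64.2 CPM with it. Cxcl10 was at 0, 250 and 50.9 CPM without the panel and at 0, 32.8 and 7.14 CPM with it. Without the panel all 31 measured type I genes stood above Sham in CLP (29 by at least 1, median 1.88). With only the panel cells all 17 measured genes were (11 by at least 1, median 1.39). Of all genes measured without the panel, 797 of 6407 were higher by at least 1 and 787 were that much lower. With only the panel cells these counts were 547 and 543 of 5153.

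**Figure D4:**
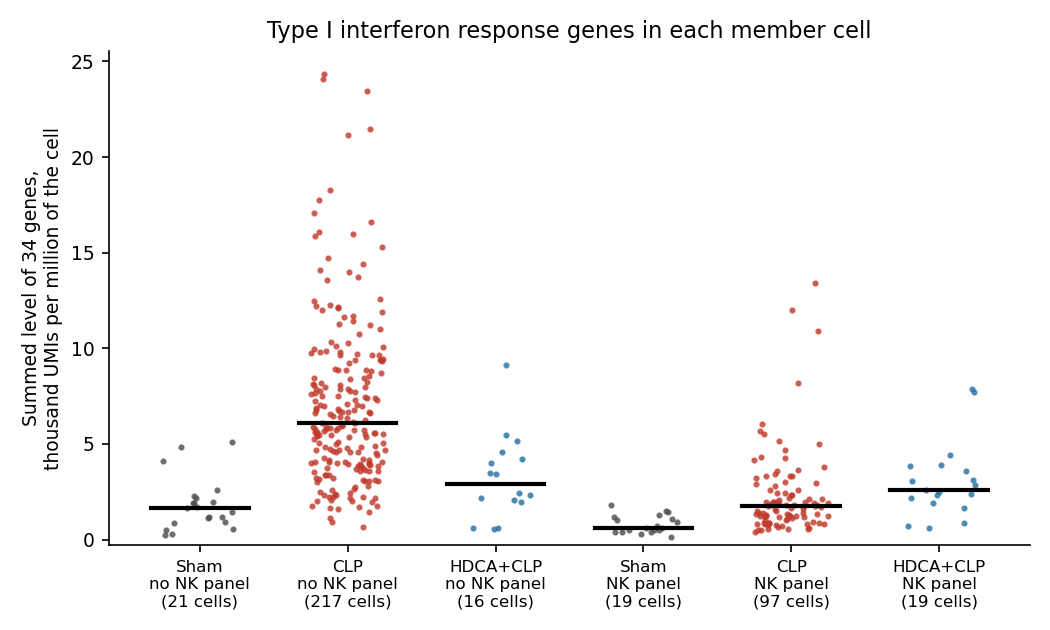
Summed level of 34 type I interferon genes in each gated cell (y axis, UMIs per cell scaled to 1e+06, in units of 1000), by library and by presence of the NK panel (x axis); each point is a cell and the black bar is the median. Panel-free CLP cells have a median of 6085 CPM, against 1641 in Sham and 2931 in HDCA+CLP.

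RNA of other blood cells also differed between the gated cells of Sham and CLP. The summed level of 10 neutrophil markers was 96.6, 1329 and 864 CPM in the gated cells and 32.2, 1073 and 1295 CPM in conventional CD3+ cells. In Sham 5 of the 10 were at 0 (Ngp, Camp, Ltf, Cxcr2 and Hdc), in CLP none, and in HDCA+CLP Csf3r and Hdc. All 9 measured were higher in CLP gated cells, with a median of 1.87. The summed level of 9 monocyte markers was 1501, 1186 and 370 CPM, with Cd14 at 0 in Sham and Csf1r, Cd68 and Fcgr1 at 0 in HDCA+CLP. B cell markers were at 159, 63.1 and 64.0 CPM. The part of this RNA in the differences was not tested. After thinning, which left 9 gated cells in Sham and 100 in CLP, the CLP to Sham median was 1.01 for each interferon list and -0.20 for the naive list. When every gene was scaled by the median ratio instead of the total, the median of all measured genes was 0.13 rather than -0.10, and 1072 genes were higher and 503 lower by at least 1 rather than 780 and 850.

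HDCA+CLP and CLP gated cells differed in granzyme and NK receptor RNA, which was higher with HDCA, and in interferon-stimulated RNA, which was lower. This comparison shares the CLP library with the previous one, so the 2 sets of differences are not independent. Of the NK identity list 15 of 17 measured genes were higher and 4 by at least 1, where 5.43% of the 7455 measured genes were that much higher and 11% that much lower, and its median was 0.63. Of the cytotoxic list 10 of 12 were higher (1 by at least 1, median 0.52), and of the shared lectin-like receptors 8 of 10 (median 0.77). Of the type I interferon list 26 of 31 were lower and 12 by at least 1 (median -0.86), and of the interferon-gamma list 16 of 22, 5 by at least 1 (median -0.53). All measured genes in the gated cells had a median of -0.01. Listed in the order NK identity, cytotoxic, lectin-like, type I interferon and interferon-gamma, conventional CD3+ cells had medians of -1.76, -0.39, -0.88, -0.07 and 0.09. The NK gate had 0.08, 0.12, -0.02, 0.47 and 0.40 in that order, with 28 of 32 measured type I genes higher.

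The share of NK panel cells differed as well, at 30.9% of the gated cells in CLP and 54.3% in HDCA+CLP. Among the panel cells alone the medians were 0.04 for NK identity, 0.12 for the cytotoxic list, 0.08 for the type I interferon list and 0.15 for the interferon-gamma list. With only the panel-free cells they were 0.61 for the cytotoxic list, -0.69 for type I interferon (26 of 31 lower) and -0.37 for interferon-gamma (15 of 22 lower). In panel cells 10 of 19 measured type I genes were higher in HDCA+CLP. The panel genes chose these classes, so the NK identity median within a class is in part fixed by that choice.

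Ccl5, Gzma and NK receptor genes were on the higher side, while 7 of 8 measured genes of the cytokine and chemokine list were lower. Ccl5, a chemokine stored by memory and killer lymphocytes, was at 6347, 8642 and 18084 CPM in Sham, CLP and HDCA+CLP, with an HDCA+CLP to CLP log2 ratio of 1.07 (1.02 to 1.11) and of -0.74 in conventional cells. Klra1, an inhibitory receptor of the Ly49 family, was at 128, 51.1 and 178 CPM (1.80, 1.24 to 2.34). Counts among Klra genes may be split between near-identical members. Klra1 was lowest in CLP. Within panel cells the log2 ratio was 0.36 for Ccl5 and -0.01 for Gzma, whereas in panel-free cells it was 1.84 and 3.68. In the panel-free cells of HDCA+CLP Gzma was carried by 7 of 16 cells.

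Other genes on the higher side rested on few cells or belonged to other functions. Tnfrsf9, the co-stimulatory receptor 4-1BB, was at 5.22, 75.6 and 270 CPM, but 52.5% of its HDCA+CLP UMIs came from 1 cell. Ube2c, a cell division gene, had 93.1% of its 29 UMIs in 1 cell. Ikzf2, the transcription factor Helios, was at 193, 62.2 and 178 CPM, a log2 ratio of 1.52 (0.97 to 2.04), and Eomes, a factor of NK and memory cells, at 65.3, 27.2 and 77.7 CPM (1.52, 0.64 to 2.31). Atp11b was at 230, 166 and 420 CPM, Tmcc1 at 75.7, 16.1 and 73.1, Treml2 at 28.7, 25.8 and 91.4, and Fam184a at 5.22, 20.3 and 77.7. For Ikzf2, Eomes and Tmcc1 the HDCA+CLP and Sham levels were close and CLP was the low one. Itga4 was at 261 against 106 CPM (1.30, 0.85 to 1.72) and Tcf7 at 174 against 84.8 CPM (1.03, 0.49 to 1.54). Of the naive list 12 of 14 genes were higher, with a median of 0.33.

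Several interferon genes were among the lowest. Of the BCL2 family list 10 of 14 measured genes were lower, with a median of -0.08. Isg20 had a log2 ratio of -2.80 (-4.43 to -1.57), Cxcl10 of -2.85 (-4.48 to -1.61) and Iigp1 of -2.21 (-3.85 to -0.97), each from 5 UMIs in HDCA+CLP. Ifi27l2a, a mitochondrial interferon gene, was at 668, 1204 and 471 CPM, a log2 ratio of -1.35 (-1.65 to -1.07), and -0.23 within panel cells. Ifi204, a DNA sensor, had 183 UMIs in CLP and 0 in HDCA+CLP and was at least 6.15-fold lower. These interferon genes were each lower in HDCA+CLP than in CLP. Bcl2a1b had a log2 ratio of -2.66 (-3.54 to -1.90) and Bcl2a1d, its near-identical copy, of -2.90. Fth1, the ferritin heavy chain, was at 1143, 3837 and 1088 CPM, a log2 ratio of -1.82 (-2.01 to -1.63), and of -0.52 without the gated cells that carried monocyte genes. Those cells numbered 3, 16 and 0. Hmox1, the haem-degrading enzyme, had 320 and 0 UMIs, with 67.8% of the former in 1 cell, and Hist1h2ap had 462 and 3, with 34.6% in 1 cell. Ly6c1, whose reads may be shared with Ly6c2, had 267 and 3 UMIs, and Tnfrsf25, a TNF family receptor of T cells, 118 and 0.

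Genes of the T helper and innate-like programmes gave a mixed picture between HDCA+CLP and CLP. Rora, a factor of innate-like and type 17 cells, was at 94.0, 207 and 73.1 CPM, a log2 ratio of -1.50 (-2.32 to -0.78), and Maf at 67.9, 103 and 27.4 CPM (-1.91, -3.37 to -0.77). Cxcr6 had a log2 ratio of -2.50 (-4.39 to -1.13). These 3 genes were lowest in HDCA+CLP. Ltb, a lymphotoxin subunit, was at 485, 743 and 306 CPM, Ccl4 at 80.9, 324 and 187, and Il2ra at 2.61, 74.7 and 18.3. Of the activation list 9 of 11 measured genes were lower (median -0.53), of the cytokine list 7 of 8 (median -0.51) and of the glucocorticoid list 14 of 16 (median -0.60). Ifng had a log2 ratio of -0.05 (-0.77 to 0.60). Tsc22d3 had 0.54 (0.12 to 0.94) and Fkbp5 -0.20 (-0.92 to 0.44).

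**Figure D5:**
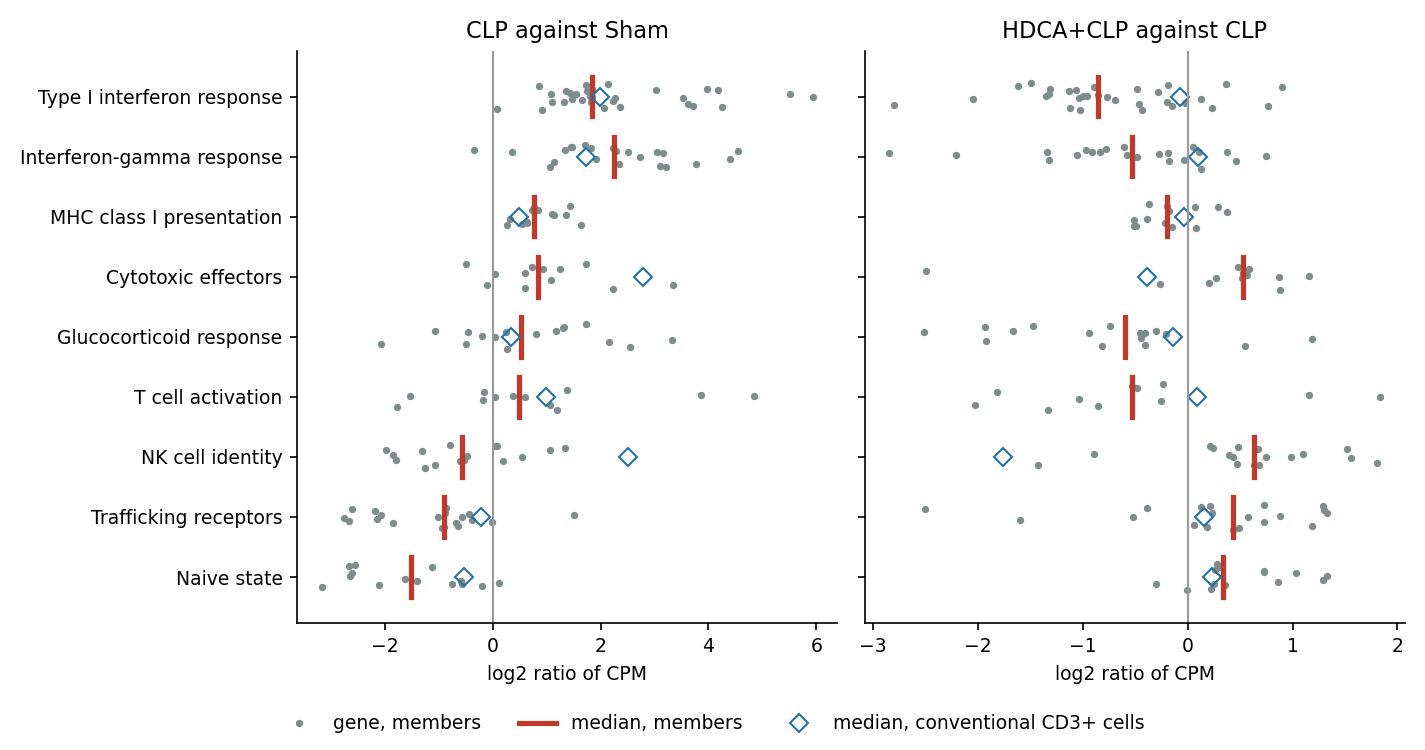
Log2 ratio of each measured gene in gated cells (x axis), by gene list (y axis), for CLP against Sham and for HDCA+CLP against CLP; each point is a gene, the red bar is the list median and the diamond is the median in conventional CD3+ cells. The type I interferon median is 1.84 in the first comparison and -0.86 in the second, and the NK identity median -0.58 and 0.63.

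RNA of other cells differed here too. Of the monocyte markers 8 of 9 measured were lower in the HDCA+CLP gated cells (median -1.62), and the summed erythroid markers were at 15.7, 12.0 and 905 CPM in Sham, CLP and HDCA+CLP, with the Hba-a1 UMIs of HDCA+CLP all in 1 cell. The part of either in the differences was not tested. With 35 cells and 218762 UMIs in HDCA+CLP, a gene at 0 there allows a level of up to 13.7 CPM, so the loss of a gene below that level was not detectable.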

How the data were processed

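The deposited files are raw UMI counts per gene and barcode, written by Cell Ranger per the file headers, for 31053 features in each of 3 droplet libraries (10x 3′ v3, NovaSeq, per the labels' protocols). The submitters' processing notes name Cell Ranger 5.0.1, Seurat 4.0.6, R 4.0.3 and build mm39, with no role or order. No cell annotation was used, and 0 other columns of values were present. Cells with under 500 UMIs, under 200 genes or over 10% mitochondrial UMIs were left out. Rows with 1 symbol were summed (31017 symbols). UMIs were summed over the gated cells of a library and divided by their total to give CPM. With 1 library a group no test across samples was possible, so log2 ratios carry exact conditional binomial intervals at 95%, counting error only. A gene was measured with at least 20 UMIs over both libraries. A gene at 0 was given the floor of 3 UMIs per library. No doublets were removed: a score from nearest neighbours among simulated doublets (2 per cell, 2000 variable genes, 30 components, 0.8% per 1000 cells) was used as an alternative. The NK panel (at least 2 UMIs of 6 genes) was a sub-gate. Thinning drew 2000 UMIs a cell with a fixed seed.

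The gate and the gene lists were chosen with earlier results of these data known. Named genes were the 10 highest and 10 lowest per comparison that had 50 UMIs or more and reached 50 CPM, in the order of the interval bound closer to 0, leaving out the gate genes, ribosomal, mitochondrial, haemoglobin, immunoglobulin, receptor segment, predicted and sex-linked genes and genes under 20% of their level in another gate. The 2 highest and lowest of each list and a fixed set were added. Il2rb, Nkg7, Trbc2, Trav11 and Bcl2a1d's values, and those of Tcf7 in the second comparison, were chosen after they were seen. Alternatives were per-cell means, median-ratio scaling, other minimums, thinning, stricter gates, doublets left out and NK panel cells left out or kept alone. Some genes that met the rule are not reported here. Promoters came from the RefSeq table (GRCm38.p6), matched by symbol. Scripts were tested on simulated data and used Python 3.11.15, NumPy 2.4.6, SciPy 1.17.1, pandas 2.3.3, scikit-learn 1.9.0 and matplotlib 3.10.9.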

Additional observations from a re-analysis of the deposited data

Results flagged for a closer look

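Some list medians in the gated cells had the opposite sign to those of the conventional CD3+ cells of the same libraries. In each case the difference was not tested, and the conventional cells were defined by having under 2 gate UMIs. In CLP against Sham the NK identity list had a median log2 ratio of -0.58 in gated and 2.50 in conventional cells, the lymphocyte transcription factors -0.80 and 0.67, and the gamma delta genes -0.56 and 0.52. In HDCA+CLP against CLP the NK identity list had 0.63 and -1.76, and the shared lectin-like receptors 0.77 and -0.88. In the NK gate the CLP to Sham medians had the sign of the gated cells. They were -0.71 for NK identity, -0.39 for the transcription factors and -1.67 for the 3 measured gamma delta genes. The HDCA+CLP to CLP medians there were 0.08 for NK identity and -0.02 for the lectin-like receptors. The signs in the gated cells did not hold throughout. For CLP against Sham the gated median of NK identity was 0.61 without NK panel cells, that of the transcription factors was 0.83 thinned, 0.23 without NK panel cells and 0.41 at 100 UMIs, and that of the gamma delta genes was 0.75 with only NK panel cells. NK panel cells were 47.5%, 30.9% and 54.3% of the gated cells in Sham, CLP and HDCA+CLP, and within them the HDCA+CLP to CLP median of NK identity was 0.04. Their part in the differences was not tested.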

How the results depend on the processing

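No paired analysis was possible because each group is 1 library and the labels carry no replicate numbers. The settings that keep only NK panel cells, or leave out cells with monocyte genes, were chosen after seeing the data. Of the alternative values for the shares and main lists 179 were classed as the same as the reported one, 18 as moved and 4 as reversed. For the other lists and genes 1526 were classed as the same, 264 as moved and 31 as reversed. List medians and counts of genes carry no interval of their own here. Counts of genes were classed by a set limit. A list median was classed as same or moved by a set limit, or by the median half-width of its genes' intervals where that was smaller. The cause of the moves and reversals was not tested, except that thinning and subsets leave fewer UMIs and cells by construction. Thinning also re-applied the gate, which left 9, 100 and 11 gated cells in Sham, CLP and HDCA+CLP.

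The log2 ratio of the share in CD3+ cells, CLP to Sham, was 3.63 thinned and 3.46 without doublets, and that of all cells 3.24 outside the neutrophil gate and 2.88 without doublets. For HDCA+CLP to CLP it was -2.58 (CD3+ cells) and -3.91 (all cells) without NK panel cells, and -2.10 outside the neutrophil gate. For CLP to Sham the thinned medians were -2.12 for NK identity, -0.25 for the cytotoxic list, 1.01 for type I interferon, 1.01 for interferon-gamma and -0.20 for the naive list. NK identity was -1.15 with per-cell means and 0.61 without NK panel cells. With only NK panel cells interferon-gamma was 0.96 and the naive list -1.13. For HDCA+CLP to CLP the thinned medians were 1.93 for NK identity and 0.19 for the cytotoxic list. With only NK panel cells NK identity was 0.038, the cytotoxic list 0.12, type I interferon 0.077 and interferon-gamma 0.15.

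Other values reversed. CLP to Sham, thinned: cytokines -0.36, activation -0.19, transcription factors 0.83, Cysltr2 -0.10, Ifng -0.67 and Il2ra -0.54. Only NK panel cells gave gamma delta genes 0.75, activation -0.19, Bhlhe40 -0.13, Ifng -0.020 and Trdc 0.45. Without them the lectins were 0.16, inhibitory receptors -0.10 and transcription factors 0.23. Gamma delta genes were 0.0014 at 5% mitochondrial UMIs, activation -0.067 with no minimum, transcription factors 0.41 at 100 UMIs, and inhibitory receptors -0.0016 with per-cell means and -0.081 without doublets. HDCA+CLP to CLP, thinned: cytokines 0.43, transcription factors -0.24, Ccl4 0.43, Cebpb 0.16, Cxcr6 0.13, Il2ra 0.25, Ly6c1 0.18, Maf 0.38 and Psmb10 0.14. Transcription factors were -0.57 without NK panel cells, and with only those cells activation was 0.27 and Gzma -0.0068. After thinning the HDCA+CLP gated cells held 22000 UMIs, and a gene without UMIs there was set to 3 UMIs. At full depth Cxcr6, Il2ra, Ly6c1 and Maf had 4, 4, 3 and 6 UMIs in HDCA+CLP. Their positive thinned ratios therefore do not show a higher level in HDCA+CLP.

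Counts of genes past a log2 ratio of 1 moved with several settings. CLP to Sham gave 780 higher and 850 lower, against 230 and 151 thinned, 267 and 190 at 100 UMIs, and 917 and 2553 with no minimum. HDCA+CLP to CLP gave 405 and 818, against 126 and 234 thinned, 47 and 194 at 100 UMIs, and 2424 higher with no minimum. At the same minimum and depth, the 850 became 503 with median-ratio scaling and 543 with only NK panel cells. The 405 became 852 without NK panel cells, 633 with per-cell means and 240 with only NK panel cells, and the 818 became 468 with only those cells.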
